A study of Mus musculus with 2 samples.

Results

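miR-22 is the pair of mature miRNAs cut from the mouse Mir22 hairpin, miR-22-3p and miR-22-5p, 2 of the 1915 mature miRNAs listed for exosomes of CT26 cells. The arms were taken by name. They were chosen by the RPM values of these same libraries, in which miR-22-3p had a high and nearly equal share, so its shares, ranks and ratio are given as a description, without a test. The study compared the small RNA of exosomes shed by parental CT26 cells and by CT26-derived spheres, called sphere-derived cancer stem cells (SDCSCs), to find miRNAs central to cancer stem cell malignancy. CT26 is an established colorectal carcinoma line of Balb/C mice, and the labels give no transgene or deletion for either condition. Parental cells were grown in complete DMEM, which held exosome-depleted serum during collection. SDCSCs were expanded for 2 weeks in serum-free DMEM/F12 with N2 supplements, 10 ng/ml EGF and 10 ng/ml bFGF, so medium and cell state cannot be told apart. Each condition had 1 library, hence nothing here has a replicate check, and a p-value across miRNAs would not stand for the conditions.

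A miRNA hairpin is trimmed in the nucleus and in the cytoplasm to a short duplex, and usually a single strand of it, the guide, stays in an Argonaute protein while the other, the passenger, is lost. The guide finds its target mRNAs mainly through its seed, bases 2 to 8. miR-22-3p is the guide of its hairpin and is made in many tissues. It is known to repress mRNAs such as those of the histone deacetylase HDAC4 and the DNA demethylase TET2, and it has been studied both as a suppressor and as a promoter of tumours. A miRNA that is abundant and steady is often used as the reference against which others are expressed in RT-qPCR.

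Mir22 (ENSMUSG00000065529.1) spans bases 75463716 to 75463810 of chromosome 11, plus strand, in GRCm38, the assembly also called mm10, which the labels name. It sits inside exon 2 of the non-coding host gene Mir22hg, and the same stretch is exon 2 of a transcript of the protein-coding gene Tlcd2. The hairpin and its arms are shown because the reads of both arms come from this single locus, and each arm has 1 entry per library. In the hairpin the capitals mark the 5p arm and, after it, the 3p arm. In the mature miRNAs they mark the seed. The sequences are those of RefSeq on GRCm38.p6, whose table held 1623 of the 1915 names.
Mir22 hairpin: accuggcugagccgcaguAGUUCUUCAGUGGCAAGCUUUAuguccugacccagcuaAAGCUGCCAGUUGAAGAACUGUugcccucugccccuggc
mmu-miR-22-3p: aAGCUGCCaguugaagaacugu
mmu-miR-22-5p: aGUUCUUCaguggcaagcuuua

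Both arms are 22 bases long, and a loop of 16 bases joins them. In the fold of lowest energy from RNAfold (-41.9 kcal/mol), 19 of the 22 bases of miR-22-3p pair with the 5p arm, among them all 7 of its seed. No other mature miRNA of the RefSeq table shares bases 2 to 8 with either arm, so miR-22 forms no seed family there. The mature sequence closest to miR-22-3p, that of miR-3966, is 3 edits away and had 0 reads in both libraries. For miR-22-5p the closest was 8 edits away. No near-identical mouse miRNA of this table could thus have split the reads of miR-22-3p.

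The libraries were shallow. The reads, recovered from the deposited RPM values, summed to 32162 in parental and 3964 in SDCSC exosomes over the highest entry of each miRNA, and 328 and 124 miRNAs had a read. A count under 3 reads, 0.00933% of the parental and 0.0757% of the SDCSC total, was treated as too low to be shown at these depths. Since reads copied by PCR are not separate molecules, intervals and limits hold for counting error alone. Every level is a share of the miRNA reads, which shows neither the number of exosomes nor the amount of miRNA per exosome. Of 8 miRNAs set as markers of colon epithelium, 3 were read in parental exosomes (55 reads in all) and 2 in SDCSC exosomes (2 reads in all), and miR-200a-3p, miR-200c-3p and miR-141-3p were at 0 in both.

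miR-22-3p was counted with 2253 reads in parental exosomes and 288 reads in SDCSC exosomes. In RPM as deposited, these are 61532.16 and 62717.77. Its share of miRNA reads was 7.01% for parental exosomes (95% Wilson interval 6.73 to 7.29%). For SDCSC exosomes it was 7.27% (6.50 to 8.12%), and the intervals overlap. At the parental share, 277.7 reads would have been counted in the SDCSC library, against the 288 seen. The log2 ratio of SDCSC over parental share was 0.05 with an exact 95% interval from -0.13 to 0.23, that is 1.04-fold with bounds of 0.914 and 1.17. Of the miRNAs with a finite ratio, 1 had a narrower interval, miR-21a-5p, at 0.25 log2 units against 0.36 for miR-22-3p.

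**Figure D1:**
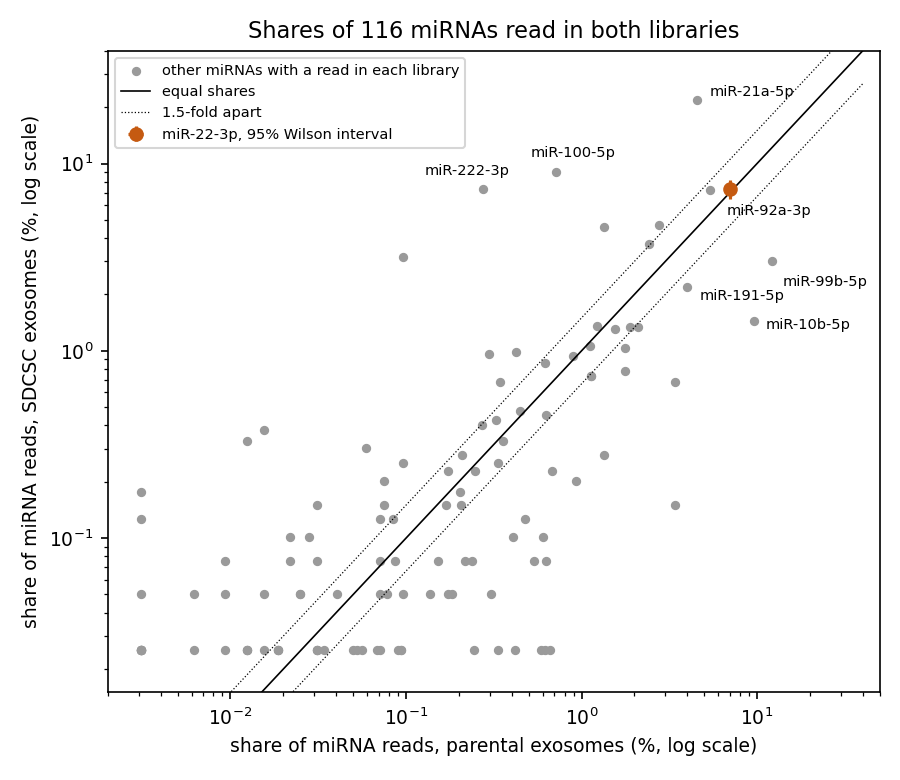
Share of miRNA reads in parental exosomes (x axis, %, log scale) and in SDCSC exosomes (y axis, %, log scale) for the 116 miRNAs with a read in each library, 1 point per miRNA. The solid line marks equal shares and the dotted lines 1.5-fold. miR-22-3p, at 7.01% and 7.27%, lies on the line of equal shares with its 95% Wilson intervals, while miR-99b-5p and miR-21a-5p lie on opposite sides of it.

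In both libraries miR-22-3p ranked 3 among all miRNAs. In parental exosomes it followed miR-99b-5p with 3927 reads and miR-10b-5p with 3073 reads. It was ahead of miR-92a-3p, a member of the oncogenic miR-17 cluster, with 1743 reads, of miR-21a-5p, widely known as an oncogenic miRNA, with 1468 reads and of miR-191-5p with 1277 reads. Its interval of 6.73 to 7.29% touched neither that of miR-10b-5p (9.24 to 9.88%) nor that of miR-92a-3p (5.18 to 5.67%).

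In SDCSC exosomes miR-21a-5p (865 reads) and miR-100-5p (359 reads) came first, and miR-22-3p held the next place together with miR-222-3p, which also had 288 reads. It was followed by miR-92a-3p with 287 reads, miR-143-3p with 185 reads and let-7a-5p with 182 reads. The shares of miR-22-3p, miR-222-3p and miR-92a-3p were not separable there, with intervals of 6.50 to 8.12%, 6.50 to 8.12% and 6.47 to 8.09%. Those of miR-100-5p (8.20 to 9.99%) and miR-143-3p (4.05 to 5.37%) lay outside. The same place was thus reached among different neighbours. Of the 10 most abundant miRNAs of each library, 5 were common to both, and among these 5 the log2 ratio was nearest to 0 for miR-22-3p, followed by 0.42 for miR-92a-3p and 0.76 for miR-143-3p, with -2.01 for miR-99b-5p and 2.26 for miR-21a-5p.

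Ratios between miRNAs of the same library need no library total. For every 100 reads of miR-22-3p, miR-99b-5p had 174.3 reads in parental and 41.7 reads in SDCSC exosomes. miR-10b-5p, like miR-10a-5p encoded in a Hox gene cluster, went from 136.4 to 19.8 reads per 100. Both guides that were more abundant than miR-22-3p in parental exosomes were thus less abundant than it in SDCSC exosomes. miR-21a-5p had 65.2 reads per 100 in parental and 300.3 in SDCSC exosomes, and miR-100-5p had 10.2 and 124.7. miR-222-3p, known for repressing the cell cycle inhibitor p27, had 3.91 reads per 100 in parental exosomes and as many reads as miR-22-3p in SDCSC exosomes. miR-92a-3p, nearest in reads to miR-22-3p in parental exosomes, had 77.4 and 99.7 reads per 100, a log2 difference of 0.37 (exact 95% interval 0.11 to 0.62).

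The miRNAs whose log2 ratio lay nearest that of miR-22-3p, among the 60 with a read in each library and at least 50 reads over both, were let-7c-5p, let-7i-5p, miR-181a-5p, miR-125b-5p and miR-320-3p, by distance in log2 ratio over these 2 libraries. let-7c-5p had 287 and 37 reads in parental and SDCSC exosomes. let-7i-5p had 144 and 19 reads, and miR-181a-5p had 393 and 54 reads. miR-125b-5p had 360 and 42 reads, and miR-320-3p had 79 and 9 reads. All 5 were less abundant than miR-22-3p, and their ratios were less precise, with interval widths from 0.85 to 2.18 log2 units. Of the 115 other miRNAs with a read in each library, 2 had the whole exact 95% interval of the ratio relative to miR-22-3p inside 1.5-fold. These were let-7c-5p, at 0.01 (-0.55 to 0.55), and miR-181a-5p, at 0.10 (-0.37 to 0.56). Sequences are shown for 4 of the 5, again with the seed in capitals, since they are the miRNAs closest to miR-22-3p in ratio. Among them the 2 let-7 miRNAs share a seed.
mmu-let-7c-5p: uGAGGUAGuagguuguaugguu
mmu-let-7i-5p: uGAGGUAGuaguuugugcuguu
mmu-miR-181a-5p: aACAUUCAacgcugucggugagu
mmu-miR-125b-5p: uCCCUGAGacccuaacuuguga

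The steadiness of miR-22-3p held under some library scalings and not under others. The log2 ratio was -0.00613 with the median of ratios over miRNAs with a read in each library, -0.00757 with TMM (the trimmed mean of M values), and 0.0275 with the deposited RPM values. It was 0.220 when the most abundant miRNA of each library was left out of the total. When the 10 most abundant were left out, miR-22-3p among them, it was 0.729, or 1.66-fold higher in SDCSC exosomes. Leaving the 15 miRNAs that are among the 10 most abundant of either library out of both totals gave 0.814, or 1.76-fold. These 15 made up 59.8% of the parental and 76.3% of the SDCSC reads.

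The median of ratios also depended on which miRNAs entered it. Over the 60 with at least 50 reads in all, the median log2 ratio was -0.57, and against it miR-22-3p was 1.54-fold higher in SDCSC exosomes (log2 ratio 0.620). Over the 37 with at least 10 reads in each library, it was at -0.0457. The median log2 ratio of these 37 by the miRNA total was 0.10, beside 0.06 over the 116 with a read in each library. A minimum in each library, also that of 1 read, is harder to meet with the fewer SDCSC reads. A minimum over both libraries is met mainly through the parental reads, which are more. Whether these rules set the medians was not tested. Without library scaling the log2 ratio was -2.97, because the parental library held 8.11 times the reads.

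**Figure D2:**
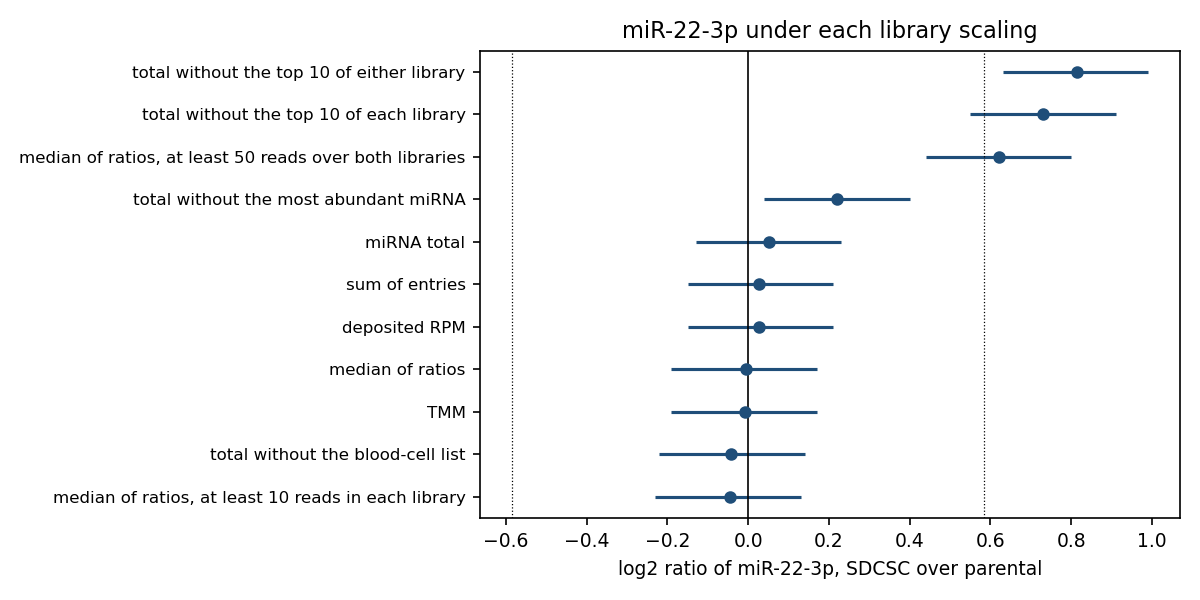
Log2 ratio of miR-22-3p, SDCSC over parental exosomes (x axis), under 11 library scalings (y axis), with bars for the exact 95% interval of its reads. Dotted lines mark 1.5-fold. The points for totals without the 10 most abundant miRNAs (0.729 and 0.814) and for the median over miRNAs with at least 50 reads (0.620) lie past 1.5-fold, and the other 8 lie between -0.0457 and 0.220. Of these 8, the deposited RPM and the sum of entries (both 0.0275) are the same measure, because the RPM is taken over all entries.

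Blood-cell miRNAs of a set list were read almost only in parental exosomes, which bears on the total. All 9 of the list, among them the red cell miRNAs miR-451a and miR-144-3p and the myeloid miR-223-3p, were read in parental exosomes, with 3 to 856 reads each and 6.35% of the total. In SDCSC exosomes 1 of the 9 was read, miR-142a-5p, with 1 read. Of all 328 miRNAs read in parental exosomes, 116 were read in SDCSC exosomes, whose library held 8.11 times fewer reads. miR-144-3p, miR-144-5p, miR-150-5p, miR-142a-3p and miR-223-3p had 3 to 12 parental reads, too few for their 0 to show a loss. Most of the parental reads belonged to miR-486a-5p (856 reads) and miR-486b-5p (853 reads), which come from opposite strands of the same locus and may share reads. With the 9 left out of both totals, the log2 ratio of miR-22-3p was -0.0416, so its nearness to 0 was as close without them.

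As a reference, miR-22-3p moved every other ratio by -0.05 log2 units from its value by the miRNA total, and the exact interval of its own ratio, 0.36 wide, adds to the error of each. Of the 115 other miRNAs with a read in each library, 42 (36.5%) were higher in SDCSC exosomes by 1.5-fold or more when scaled to miR-22-3p, 41 (35.7%) were lower by as much, and 32 (27.8%) were within 1.5-fold. By the miRNA total, 44 of 116 were higher (37.9%), 41 lower (35.3%) and 31 within (26.7%). Between these scalings 2 miRNAs changed side. Because miR-22-3p was chosen for its nearly equal shares, the small shift and the near match of the counts follow from that choice. They are no test of it as a reference. miR-10a-5p, with 774 and 148 reads, was at 0.63 by the total and at 0.58 relative to miR-22-3p. miR-148b-3p, with 27 and 5 reads, was at 0.59 and 0.53. The few reads of the SDCSC library limit these counts, since a single SDCSC read counts as higher at up to 5 parental reads, and 18 of the 42 had fewer than 3 SDCSC reads, 12 of them a single read. The lower count holds such miRNAs too, for example miR-17-5p with 30 and 1 reads and miR-15b-5p with 25 and 2 reads. The exact 95% interval relative to miR-22-3p was clear of 0 for 47 of the 115, with 20 higher and 27 lower.

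The list of 21 miRNAs commonly used as references in cells, serum or vesicles was compared with miR-22-3p next. All 21 had a read in parental exosomes and 20 in SDCSC exosomes. Relative to miR-22-3p, 7 of the 20 were within 1.5-fold (35.0%, beside 27.8% of all 115), 11 were lower and 2 higher in SDCSC exosomes. The median log2 ratio of the 20 was -0.81, against 0.01 over all 115. Most of the 20 had at least 50 reads over both libraries, unlike many of the 115. Over the 60 miRNAs with that many reads, the median log2 ratio by the miRNA total was -0.57. A lower median was thus not particular to the candidates. None of the 20 had its whole interval inside 1.5-fold.

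miR-16-5p, widely used as a reference in plasma, had 502 and 52 reads and a log2 ratio relative to miR-22-3p of -0.30 (exact 95% interval -0.78 to 0.15). miR-191-5p, a common reference in cell lines, had 1277 and 87 reads and was lower, at -0.91 (-1.28 to -0.54). miR-26a-5p was also lower, at -0.71 (-1.18 to -0.26), with 679 and 53 reads. The interval of miR-16-5p spanned 0, and those of miR-191-5p and miR-26a-5p did not. Much lower were miR-151-3p, with 1098 and 6 reads (-4.55; -6.01 to -3.40), and members of the miR-106b-25 cluster, miR-93-5p with 134 and 1 reads (-4.10; -9.42 to -1.58) and miR-25-3p with 199 and 1 reads (-4.67; -9.98 to -2.16). Of the higher ones, let-7a-5p had 435 and 182 reads, at 1.71 (1.39 to 2.02), and miR-152-3p had 1 and 2 reads, which are under the floor.

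The other members within 1.5-fold were miR-92a-3p, let-7g-5p, let-7i-5p, miR-320-3p, miR-103-3p and miR-425-5p. Apart from miR-92a-3p, each had at most 19 reads in SDCSC exosomes, and the interval widths of their ratios by the miRNA total ran from 1.47 to 8.25 log2 units. The remaining lower members, namely miR-423-3p, miR-423-5p, miR-484, miR-186-5p, miR-23a-3p and miR-361-5p, had 1 to 4 reads there, and the intervals of miR-423-3p, miR-484 and miR-361-5p spanned 0. miR-24-3p had 51 reads in parental and 0 reads in SDCSC exosomes, where a count of 0 allows up to 0.0757% of the total.

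**Figure D3:**
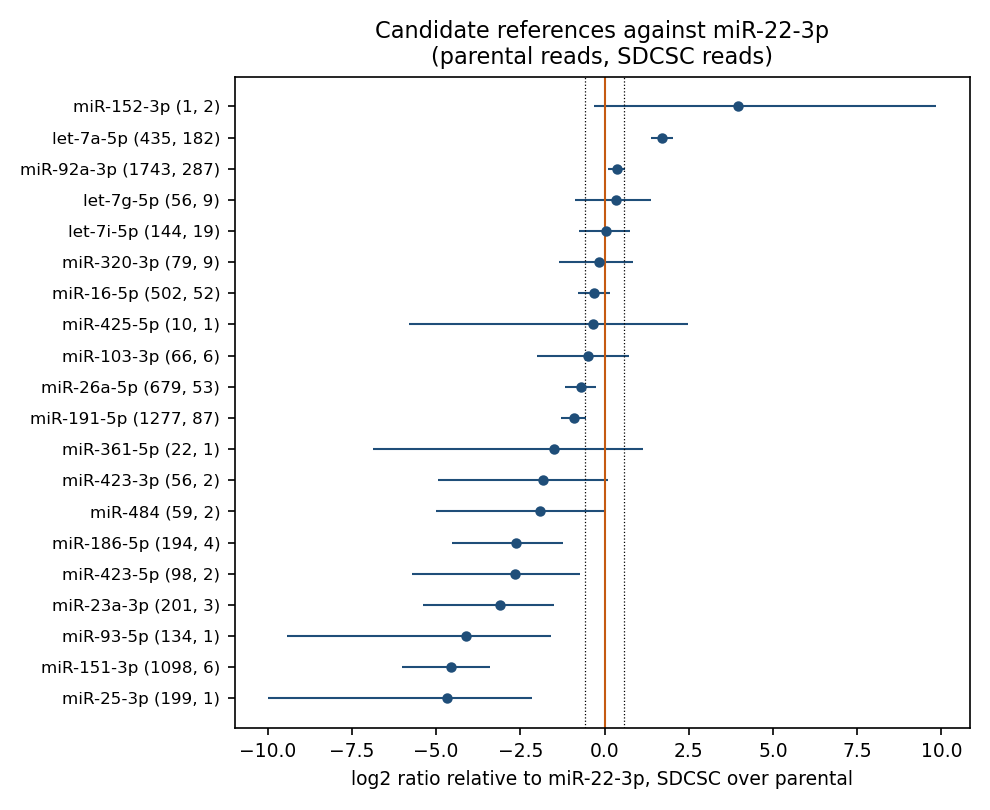
Log2 ratio relative to miR-22-3p, SDCSC over parental exosomes (x axis), of the 20 candidate references with a read in each library (y axis, with parental and SDCSC reads), with exact 95% intervals. The orange line is miR-22-3p and the dotted lines 1.5-fold. miR-16-5p at -0.30 and miR-92a-3p at 0.37 lie near it with short intervals, and miR-25-3p at -4.67 lies farthest below.

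The choice of reference set how the rest of the miRNAs appeared, through the log2 ratio of the reference itself by the miRNA total. That ratio was 0.05 for miR-22-3p, which was chosen for nearly equal shares, -4.05 for miR-93-5p and 1.76 for let-7a-5p. The counts therefore do not rank miR-22-3p against the other references. With miR-16-5p as the reference, 53 miRNAs were higher and 36 lower, and the sum of the candidates gave the same counts. With miR-191-5p they were 66 and 27. With miR-93-5p, whose SDCSC value is a single read, 110 were higher and 1 lower. let-7a-5p gave 18 higher and 84 lower, and miR-21a-5p, the most abundant miRNA of SDCSC exosomes, gave 16 and 89.

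**Figure D4:**
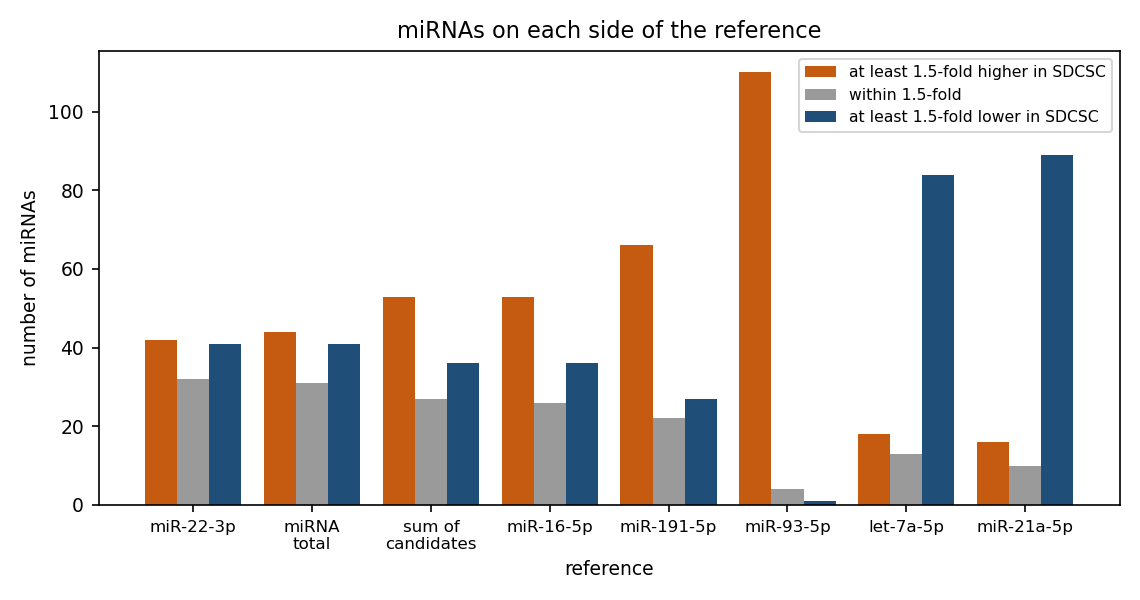
Number of miRNAs (y axis) higher by 1.5-fold or more, within 1.5-fold, and lower by 1.5-fold or more in SDCSC exosomes when each of 8 references (x axis) sets the scale, over miRNAs with a read in each library. The bars for miR-22-3p stand at 42, 32 and 41, and those for miR-93-5p at 110, 4 and 1.

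miR-22-5p, the other arm, had 0 reads in parental and 0 reads in SDCSC exosomes. No ratio between the libraries can be given for it. Of the reads of both arms, taking 3 reads as the limit, 0 of 2253 allows a miR-22-5p share of up to 0.133% in parental exosomes, and 0 of 288 allows up to 1.04% in SDCSC exosomes. The arm that pairs with the seed of miR-22-3p in the hairpin shown above was thus not detected at these depths, and a difference in arm use between the conditions was not detectable.

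Hairpins were compared where both arms are listed under the same name. An arm with a locus number was not paired with a partner named without it. This left out miR-92a-1-5p (13 and 0 reads) with miR-92a-3p, and miR-125b-1-3p (172 and 3 reads) with miR-125b-5p, among others. With at least 10 reads over both arms in each library, 27 paired hairpins remained. The minor arm (the one with fewer reads over both libraries) took a median of 1.62% of the parental reads. At that share 37.1 reads of miR-22-5p would have been counted in parental exosomes. The minor arm was at 0 in parental exosomes for 8 of the 27, which were also at 0 in SDCSC exosomes. Besides miR-22, these were miR-100, miR-10a, miR-143, miR-191, miR-29a, miR-411 and miR-92b. miR-22 had the most parental reads of the 8, so its upper limit was the lowest among them, followed by miR-191 at 0.235% and miR-143 at 0.338%. Next above was miR-10b, with 1 read of its 3p arm among 3074 (0.0325%). Of the other 26 hairpins, 18 had a minor arm share above the limit of miR-22 in parental exosomes, and for 17 of them the whole Wilson interval lay above it.

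For miR-21a, which had fewer reads over both arms than miR-22 in parental exosomes and more in SDCSC exosomes, the passenger was counted. It had 19 reads of miR-21a-3p among 1487 in parental exosomes (1.28%) and 12 among 877 in SDCSC exosomes (1.37%). In SDCSC exosomes the minor arm was at 0 for 21 of the 27, and at the parental median share 4.75 reads of miR-22-5p would have been counted there.

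**Figure D5:**
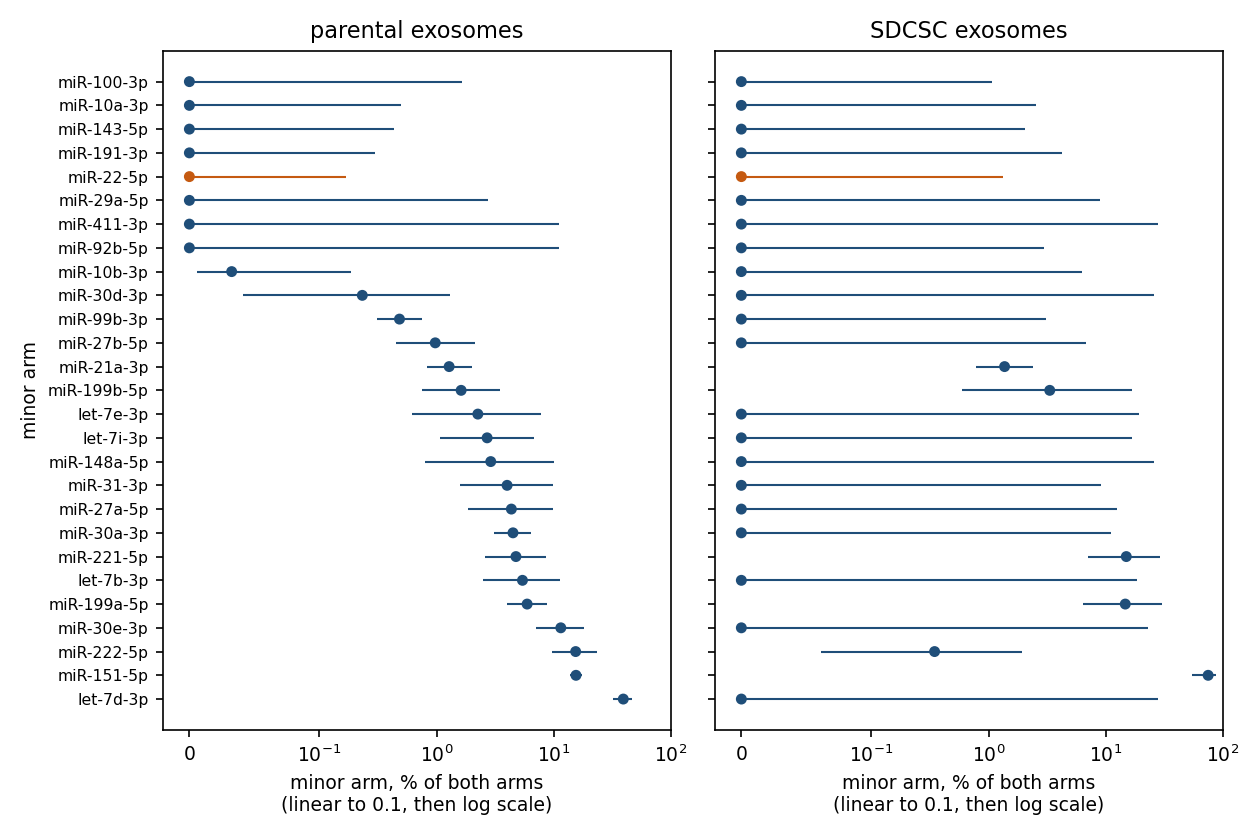
Share of the minor arm in the reads of both arms (x axis, %, linear to 0.1 and logarithmic above) for 27 hairpins (y axis, named by the minor arm), in parental exosomes (left) and SDCSC exosomes (right), with 95% Wilson intervals. miR-22-5p, in orange, is at 0 in both panels, and in parental exosomes its bar ends at 0.170%, the Wilson bound, which is wider than the limit of 3 reads (0.133%) and the shortest of the 8 hairpins at 0.

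Neighbours of Mir22 on the chromosome were hardly read. Within 1 Mb lie Mir3971, at a distance of 87.7 kb, Mir132 and Mir212, a pair known from neurons, at 290.0 and 290.3 kb, and Mir6926 at 595.6 kb. Of their 7 mature miRNAs, miR-132-3p had 4 reads in parental and 0 reads in SDCSC exosomes, and the other 6 had 0 in both. The abundance of miR-22-3p was not shared by the miRNAs around it.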

How the data were processed

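Small RNA of 18 to 40 nucleotides was sequenced from exosomes pelleted by ultracentrifugation, with 1 library for each condition. The authors trimmed adapters and low-quality bases with Trimmomatic, discarded reads shorter than 18 nucleotides and deposited RPM values per mature miRNA and precursor. The labels name mm10. For the RNA classes of exosomes the paper names ncPRO-seq, run on Rfam and RepeatMasker annotations, with reads divided among overlapping features. Whether the deposited miRNA values were made in that way is not given in the sources used here. Reads were recovered by dividing by the value of 1 read (27.31 and 217.77 RPM). Of the values above 0, 100.0% were whole within 0.05 reads. The highest entry was kept for each of 83 repeated names. Ratios of shares have exact conditional 95% intervals and shares have Wilson intervals. Ratios relative to miR-22-3p have exact conditional odds ratio intervals. A count test of the recovered reads was added (Fisher's exact test, two-sided, Benjamini-Hochberg over 336 miRNAs with a read). At an adjusted p under 0.05 it called 17 higher and 31 lower, a comparison of the libraries rather than of the conditions.

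The members and lists were chosen with earlier results of these data known. The miRNAs named are both arms, the nearest 3 by rank on each side, the most abundant, the 5 nearest in ratio, the candidate references, seed sharers and neighbours within 1 Mb, those that changed side, and the hairpins next in minor arm share. miR-100-5p, miR-143-3p and miR-222-3p fall under the rank rule. miR-148b-3p, miR-21a-3p, miR-92a-1-5p, miR-125b-1-3p and the hairpins at 0 were named after their values were seen. Alternatives were other scalings, sums of entries, read minimums, a 2-fold threshold and other references. Scripts were tested on simulated data. Versions were Python 3.11.15, scipy 1.17.1, pandas 2.3.3, numpy 2.4.6, matplotlib 3.10.9, ViennaRNA 2.7.2 (RNAfold), R 4.3.3 and edgeR 4.0.16 (TMM factors only). Coordinates are from GENCODE M21 and RefSeq, both on GRCm38.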

Additional observations from a re-analysis of the deposited data

How the results depend on the processing

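No paired analysis was possible because there was a single library on each side. The log2 ratio of miR-22-3p, 0.0526 by the miRNA total, was -2.97 without library scaling and 0.729 with totals that leave out the 10 most abundant miRNAs. Chosen after seeing the data, it was 0.814 with the 10 most abundant of either library left out of both totals and 0.620 with the median over miRNAs with at least 50 reads. The median over miRNAs with at least 10 reads in each library and the total without the blood-cell list were also chosen then. Its share became 6.15% and 6.27% in parental and SDCSC exosomes with sums of entries, where its SDCSC rank was 5, and 7.98% and 9.29% without the most abundant miRNA of each library. Where 10 reads were required on both sides, 36 miRNAs were counted, 6 of them candidates. Relative to miR-22-3p, 11 of the 36 were higher, 10 were lower and 15 lay within 1.5-fold, among them 3 candidates. A read in either library gave 152 higher and 102 lower of 335. There, 0.5 reads were added to both counts of a miRNA that had 0 in a library. With that addition, a miRNA with 1 or 2 parental reads and 0 SDCSC reads counted as higher. The 152 thus include miRNAs never read in SDCSC exosomes. Higher and lower counts were 66 and 27 with miR-191-5p as the reference, 110 and 1 with miR-93-5p, 18 and 84 with let-7a-5p and 16 and 89 with miR-21a-5p, with 4, 2, 0 and 1 candidates within 1.5-fold. The other 23 of 49 alternatives stayed within the interval or within 1.5 times the count. Among these 23, the deposited RPM and the sum of entries are the same measure of the miR-22-3p ratio. The causes of the changes with scaling were not tested. As miR-22-5p had no read, no ratio of it or of the arms was computed, and their alternatives were not run. The 3964 SDCSC reads limit every result with few reads.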
